A study of Mus musculus with 8 samples.

Results

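The genes described here mark 3 cell populations that wrap vessels and cover the brain surface: pericytes, vascular smooth muscle cells and meningeal fibroblasts. A list of 34 genes was taken by symbol from the count matrix, which holds 54446 gene rows: 10 pericyte genes and 7 smooth muscle genes, together called mural genes, and 17 meningeal fibroblast genes. Of the 34, 32 had counts above 0, and all 32 passed the filter on low counts, 16 mural and 16 fibroblast genes. RNA-seq counts were compared between 4 libraries of mice in which both Scn2a copies carry a gene trap (HOM, genotype Scn2agt/gt, replicates 1 to 4) and 4 libraries of their wild-type littermates (WT, replicates 1 to 4). Both groups came from heterozygous breeding pairs of a strain spelled C75BL6 in the labels, which give no treatment, age, sex or brain region. The design sets gene expression under strongly reduced Scn2a, the gene of a neuronal sodium channel, against that of littermates. The trapped allele is inherited and is therefore present in every cell of a HOM mouse, not in neurons alone.

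Pericytes sit on capillaries within the vessel's basement membrane and receive the growth factor PDGF-B from endothelial cells through the receptor encoded by Pdgfrb. Smooth muscle cells ring arterioles and contract when myosin light chain kinase phosphorylates the light chain of smooth muscle myosin. Meningeal fibroblasts lay down the collagen and small proteoglycans of the brain's coverings, make retinoic acid and carry transporters for amino acids and organic anions.

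The labels name neuron as the source, yet transcripts of all 3 populations were present in every library. The markers Pdgfrb, Myh11 and Dcn (decorin) had at least 589, 95 and 331 counts in each library. Neuron markers summed to 5303 to 5580 CPM in HOM and 5935 to 6848 CPM in WT, with 2 of 6 tested lower in HOM and Tubb3 and Nefl, whose spans are wholly covered by other genes, at 0 throughout. Astrocyte markers (1 of 6 tested lower), microglia markers (1 of 6 higher) and ependymal markers (none of 7 passing) were present too. Of all genes tested, 2.94% were lower and 2.47% higher in HOM. The 34 genes together took 0.0318% to 0.0387% of the counts in HOM libraries and 0.0397% to 0.0422% in WT libraries. In bulk RNA, fewer cells of a type and less RNA per cell cannot be told apart.

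Library totals ran from 27993412 to 35339890 counts in HOM and from 29053382 to 37538988 counts in WT. Scn2a, the trapped gene, stood at 128 ± 15.1 CPM in HOM and 435 ± 51.6 CPM in WT (CPM, counts relative to the library total after TMM scaling; SD, n = 4 each), with no overlap between genotypes. In all, 5.4% of 17395 genes tested passed a Benjamini-Hochberg adjusted p of 0.05 in edgeR's quasi-likelihood test, 2.94% lower and 2.47% higher in HOM. Nothing in the labels states that every library had its own animal. The p-values therefore reflect library-to-library spread, part of which may be technical. HOM replicate 4 held 2 counts summed over Uty, Kdm5d, Eif2s3y and Ddx3y on the Y chromosome, against 4452 to 5984 in each of the other 7 libraries. Choroid plexus markers varied widely: the summed level of 16 of them, Kcnj13 among these at 0 throughout and wholly covered by another gene's span, was 33.4 to 262 CPM in HOM libraries and 173 to 1837 CPM in WT libraries, highest in WT replicate 4. HOM replicate 4 also stood apart in fibroblast genes, so log2 fold changes without it are given beside the fibroblast results. Because this library was picked by those same values, the fold changes and adjusted p-values without it are descriptions.

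Among 16 tested mural genes HOM had 3 that fell and none that rose, and 13 missed the threshold (edgeR, adjusted p under 0.05; 2.94% of all genes tested were lower and 2.47% higher). Their median log2 fold change, HOM over WT, was -0.22, beside 0.00 over all genes tested. Among 16 tested fibroblast genes 2 fell, none rose and 14 missed the threshold, at a median of -0.35. All 5 lower genes had HOM and WT values that did not overlap. So did 3 mural genes that did not pass, Rgs5, Anpep and Acta2; the background for groups that do not overlap with HOM lower was 7.47%, or 1300 of the genes tested. The members were picked with earlier results of these data known, so these counts are descriptions.

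**Figure D1:**
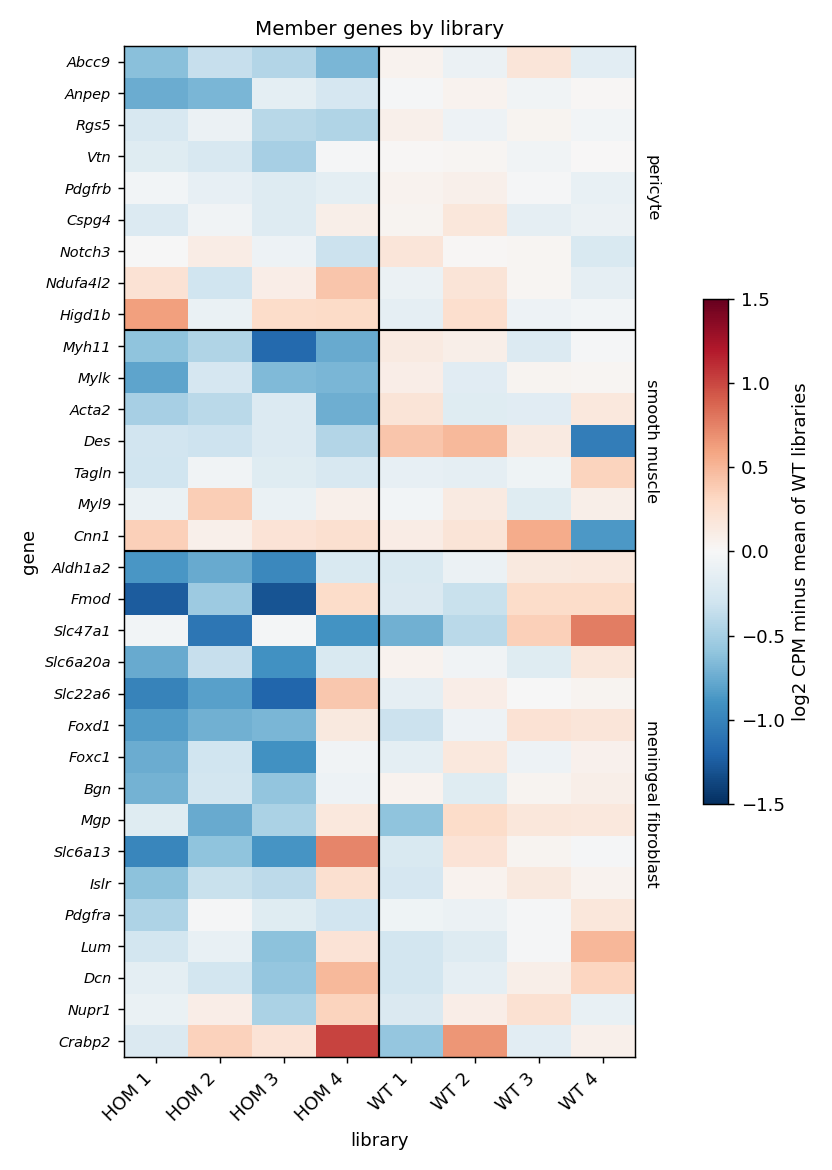
Log2 CPM of the 32 measured genes (rows) in the 8 libraries (columns, HOM left, WT right), each minus the mean of the gene's WT libraries, as a colour from blue (lower) to red (higher). The smooth muscle genes Myh11, Mylk, Acta2, Tagln and Des are below the WT mean in all 4 HOM libraries. Cnn1 is above it in all 4, and Myl9 lies on both sides. Most fibroblast genes are blue in HOM replicates 1 to 3 and near or above the WT level in HOM replicate 4.

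Of 7 smooth muscle genes tested, 2 fell, Myh11 and Mylk, at a median log2 fold change of -0.44. Over all genes tested 2.94% fell. Promoter stretches of 2 other smooth muscle genes, Acta2 and Myl9, are shown because serum response factor, the main activator of contractile genes, binds the CArG box, and TEAD factors bind the MCAT element. They come from RefSeq windows on GRCm38.p6 that run from 250 bases before a gene's start to 50 after it, which 24 of the 34 members have, among them 5 of 7 smooth muscle genes. Capitals mark a CArG box, allowing 1 core base other than A or T, or the MCAT letters GGAATG, which were searched on both strands.
Acta2: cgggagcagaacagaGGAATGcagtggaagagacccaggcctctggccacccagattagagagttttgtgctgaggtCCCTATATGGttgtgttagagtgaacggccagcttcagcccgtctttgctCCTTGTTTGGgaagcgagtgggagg
Myl9: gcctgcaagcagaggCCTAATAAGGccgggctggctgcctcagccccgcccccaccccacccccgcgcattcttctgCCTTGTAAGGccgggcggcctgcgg

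The Acta2 stretch is chr19:34255383-34255534 on the minus strand and that of Myl9 is chr2:156775288-156775389 on the plus strand. A strict CArG box was found in 1 of 5 smooth muscle windows (Myl9), in none of 7 pericyte and 14 fibroblast windows, and in 1.63% of all 32851 promoter windows. A box with 1 other core base was found in 2 of the 5 (Acta2 and Myl9), in none of the 7 and 14, and in 8.5% of all windows. The MCAT letters occurred in 2 of 5 smooth muscle, 2 of 7 pericyte and 3 of 14 fibroblast windows and in 14.7% of all windows. No capitals overlap one another. Acta2 and Myl9, both with CArG letters, had log2 fold changes of -0.47 and 0.06, and neither passed the threshold.

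Myh11 encodes the smooth muscle myosin heavy chain. Its level was 4.40, 4.88, 2.95 and 3.95 CPM in HOM replicates 1 to 4, against 7.35, 7.15, 5.80 and 6.63 CPM in WT replicates 1 to 4. Every HOM library lay below every WT library, and HOM held 60.1% of the WT mean. The log2 fold change was -0.74 (SE 0.16, edgeR adjusted p = 0.0228), and an exact two-sided permutation test of log2 CPM gave p = 0.0286, the smallest value that 70 relabellings allow. Groups that do not overlap always give this value. The call was lost without HOM replicate 1, 3 or 4 or WT replicate 1, each left out alone, at adjusted p up to 0.0736 and log2 fold changes from -0.83 to -0.60 over all 8 removals.

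Mylk encodes myosin light chain kinase, which starts contraction. It had 4.90, 7.17, 5.36 and 5.28 CPM in HOM replicates 1 to 4, against 9.11, 7.58, 8.74 and 8.72 CPM in WT replicates 1 to 4. HOM replicate 2 came closest to WT, and no HOM library reached the lowest WT value. The log2 fold change was -0.59 (SE 0.13, edgeR adjusted p = 0.0266). The call held without HOM replicate 2 or WT replicate 2 and was lost in the other 6 removals, at adjusted p up to 0.0980. Mylk spans a long locus (chromosome 16, 34745210 to 35002420 in GRCm38), of which 8.72% is shared with genes of the opposite strand.

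Acta2, smooth muscle alpha-actin, stood at 3.71, 3.94, 4.53 and 3.14 CPM in HOM replicates 1 to 4, against 6.003, 4.61, 4.66 and 5.87 CPM in WT replicates 1 to 4. The groups did not overlap, though HOM replicate 3 and WT replicates 2 and 3 were close, and the gene did not pass (log2 fold change -0.47, SE 0.15, edgeR adjusted p = 0.0902; DESeq2 adjusted p = 0.0380). Des, the intermediate filament desmin, averaged 1.09 ± 0.0781 CPM in HOM and 1.48 ± 0.595 CPM in WT (SD, n = 4; log2 fold change -0.44, SE 0.30), with WT replicate 4 the lowest of all 8 libraries. Tagln (transgelin, an actin-binding protein) gave -0.22 (SE 0.21), and 58.0% of its span is shared with genes of the opposite strand. Myl9, the regulatory light chain that Mylk's product phosphorylates, averaged 7.35 ± 1.19 CPM in HOM and 7.01 ± 0.689 CPM in WT, a log2 fold change of 0.06 (SE 0.13). Cnn1 (calponin) gave 0.17 (SE 0.34) on 6 to 19 counts per library, and the difference detectable at that depth was not tested. Neither Myl9 nor any other smooth muscle member was higher beyond the spread between libraries.

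Actin and light chain genes have close relatives in the genome, so reads of Acta2 and Myl9 may in part have been assigned elsewhere. Among 17 other smooth muscle genes tested, none fell and 1 rose, at a median log2 fold change of -0.17. Over all genes tested 2.94% fell and 2.47% rose. The gene that rose was Itga8, an integrin subunit, at 26.3 ± 1.69 CPM in HOM and 15.8 ± 1.81 CPM in WT (SD, n = 4). Its log2 fold change was 0.73 (SE 0.09, edgeR adjusted p = 0.00238), and which cells the Itga8 counts came from was not tested. Srf, the gene of serum response factor, stood at 0 counts in every library, but its span lies wholly within other genes, so this is no measure of its expression; it is named after its value was seen. Smtn (smoothelin) was at -0.45 (SE 0.13, edgeR adjusted p = 0.0610), with 29.0% of its span shared with other genes, and the tropomyosin gene Tpm1 at -0.18 (SE 0.06, edgeR adjusted p = 0.0826). The filamin gene Flna was at 0.24 (SE 0.07, edgeR adjusted p = 0.0594), and these last 3 did not pass.

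Of 9 pericyte genes tested, 1 fell, at a median log2 fold change of -0.13. A single call is too few to set against the 2.94% of all genes tested that fell. Abcc9 encodes the sulfonylurea receptor SUR2, which partners the potassium channel subunit Kir6.1 in mural cells. It had 6.45, 7.84, 7.32 and 6.19 CPM in HOM replicates 1 to 4, against 10.4, 9.36, 11.3 and 8.94 CPM in WT replicates 1 to 4. All HOM libraries were below all WT libraries, at a log2 fold change of -0.53 (SE 0.11, edgeR adjusted p = 0.0250). The exact two-sided permutation test gave p = 0.0286, which follows from the lack of overlap and adds nothing to it. The call was lost without HOM replicate 1, 3 or 4 or WT replicate 1 or 3, at adjusted p up to 0.0940, and 10.4% of its span is shared with a gene of the opposite strand. Kcnj8, the gene of Kir6.1 itself, averaged 2.32 ± 0.453 CPM in HOM and 2.97 ± 0.617 CPM in WT and did not pass (-0.36, SE 0.20).

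Rgs5, a regulator of G protein signalling that is among the most used pericyte markers, was at 72.9, 81.0, 64.5 and 62.8 CPM in HOM replicates 1 to 4, against 90.8, 81.7, 88.7 and 83.5 CPM in WT replicates 1 to 4. HOM replicate 2 almost touched WT replicate 2, and the gene just missed the threshold (log2 fold change -0.29, SE 0.08, edgeR adjusted p = 0.0597). It passed with DESeq2 (adjusted p = 0.0201) and without HOM replicate 2 (edgeR adjusted p = 0.0238). Pdgfrb, the PDGF-B receptor and defining mural gene, averaged 20.6 ± 0.942 CPM in HOM and 22.5 ± 1.27 CPM in WT (SD, n = 4), with overlapping groups (log2 fold change -0.13, SE 0.07, edgeR adjusted p = 0.333). Its log2 fold change lay between -0.16 and -0.09 in all 8 removals.

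Anpep, the aminopeptidase CD13 on the pericyte surface, was 2.16, 2.25, 3.29 and 3.05 CPM in HOM replicates 1 to 4, against 3.60, 3.79, 3.51 and 3.71 CPM in WT replicates 1 to 4. The groups did not overlap, without a pass (log2 fold change -0.44, SE 0.17, edgeR adjusted p = 0.135). Vtn (vitronectin, an adhesive protein that pericytes secrete) gave -0.23 (SE 0.09) and Notch3, the receptor that maintains mural cells, gave -0.07 (SE 0.12); 45.7% of the Notch3 span is shared with a gene of the opposite strand. The mitochondrial protein genes Higd1b and Ndufa4l2 were at 0.30 (SE 0.21) and 0.14 (SE 0.20), on 37 to 79 and 37 to 77 counts per library, and did not pass. Cspg4, the proteoglycan NG2, is shared with oligodendrocyte precursors and gave -0.09 (SE 0.09). Of 9 precursor markers tested, none fell and Pcdh15 rose, and their summed level was 528 to 575 CPM in HOM and 548 to 581 CPM in WT. Over all genes tested 2.94% fell and 2.47% rose.

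Kcne4, a potassium channel subunit gene, stood at 0 counts in every library, as did the fibroblast gene Ogn (osteoglycin). Both lie wholly inside a gene of the opposite strand, Gm29536 for Kcne4 and Cenpp for Ogn. Of 748 protein-coding genes covered only by genes of the opposite strand, 736 stood at 0, so the 0 of these 2 members is no measure of their expression.

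**Figure D2:**
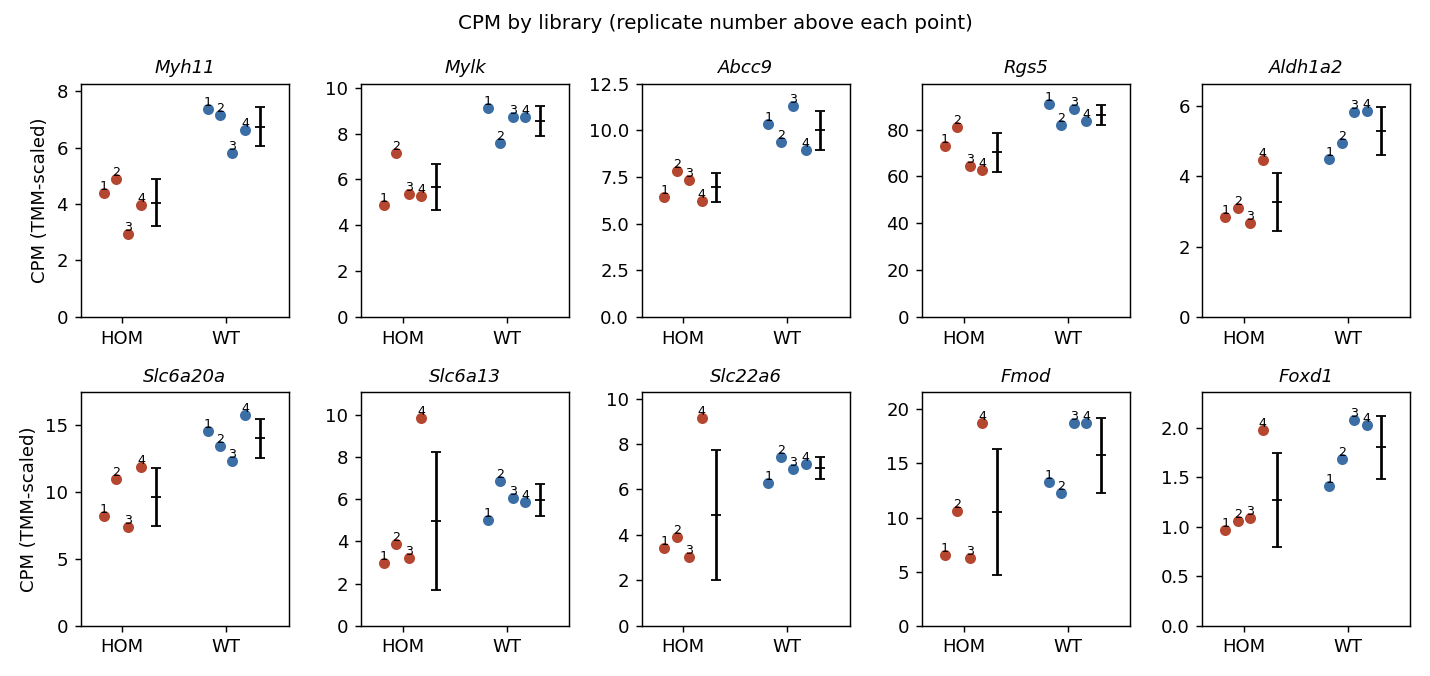
CPM of 10 member genes in each library (points, replicate number above), HOM left of WT in each panel, with group mean and SD (black bars, n = 4). Myh11, Mylk and Abcc9 are lower in all 4 HOM libraries, whereas Slc6a13, Slc22a6, Fmod and Foxd1 are low in HOM replicates 1 to 3 and within or above the WT range in HOM replicate 4.

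Signals that recruit mural cells were measured as well. Of 25 genes tested, 2 fell and none rose, at a median log2 fold change of -0.13. Over all genes tested 2.94% fell and 2.47% rose, also the background for the endothelial and other pericyte genes below. Both genes that fell act in TGF-beta family signalling of endothelium: Eng, the coreceptor endoglin, at 15.2 ± 1.22 CPM in HOM and 21.8 ± 2.02 CPM in WT (-0.52 on the log2 scale, SE 0.09, edgeR adjusted p = 0.0121), and Acvrl1, the receptor ALK1, at 9.39 ± 2.06 CPM in HOM and 14.3 ± 0.895 CPM in WT (-0.61, SE 0.14, edgeR adjusted p = 0.0285; SD, n = 4). The angiopoietin receptor relative Tie1 (-0.47, SE 0.14) and the sphingosine phosphate receptor gene S1pr1 (-0.23, SE 0.07) did not pass. Pdgfb, the ligand of Pdgfrb, gave -0.06 (SE 0.07). Endothelial markers themselves were lower for 4 of 12 tested, at a median of -0.36, with summed levels of 198 to 233 CPM in HOM and 245 to 311 CPM in WT. Their part in the mural values was not tested. Among 13 other pericyte genes tested, Ifitm1 fell (-0.94, SE 0.23, edgeR adjusted p = 0.0397), none rose, and the median was -0.09. Cox4i2 (-0.74, SE 0.28) and Tbx18 (-0.50, SE 0.20) did not pass.

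Meningeal fibroblast genes differed from mural genes in how the HOM libraries spread. Relative to the WT mean, the median over the 16 fibroblast genes was -0.66, -0.34, -0.60 and 0.18 in HOM replicates 1 to 4, and -0.23, -0.07, 0.06 and 0.16 in WT replicates 1 to 4 (log2 CPM). For pericyte genes it was -0.18, -0.12, -0.19 and -0.15 in HOM and 0.04, 0.05, -0.01 and -0.08 in WT. For smooth muscle genes it was -0.30, -0.25, -0.20 and -0.44 in HOM and 0.11, 0.09, -0.06 and 0.03 in WT. By these medians HOM replicate 4 was the highest library for fibroblast genes and the lowest for smooth muscle genes. By summed CPM it was at 183 CPM for fibroblast genes, against 200.4 CPM in WT replicate 4, the highest. For smooth muscle genes the sums of HOM replicates 1, 3 and 4 lay close together at 22.2, 22.1 and 22.3 CPM. It gave the highest HOM value for 14 of 16 fibroblast genes and for 3 of 16 mural genes, and did so for 32.6% of all genes tested. For 7 fibroblast genes it exceeded every WT library too, beside 18.5% of all genes tested. WT replicate 4 was the highest of all libraries for 6 of the 16 fibroblast genes, beside 14.5% of all genes tested.

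**Figure D3:**
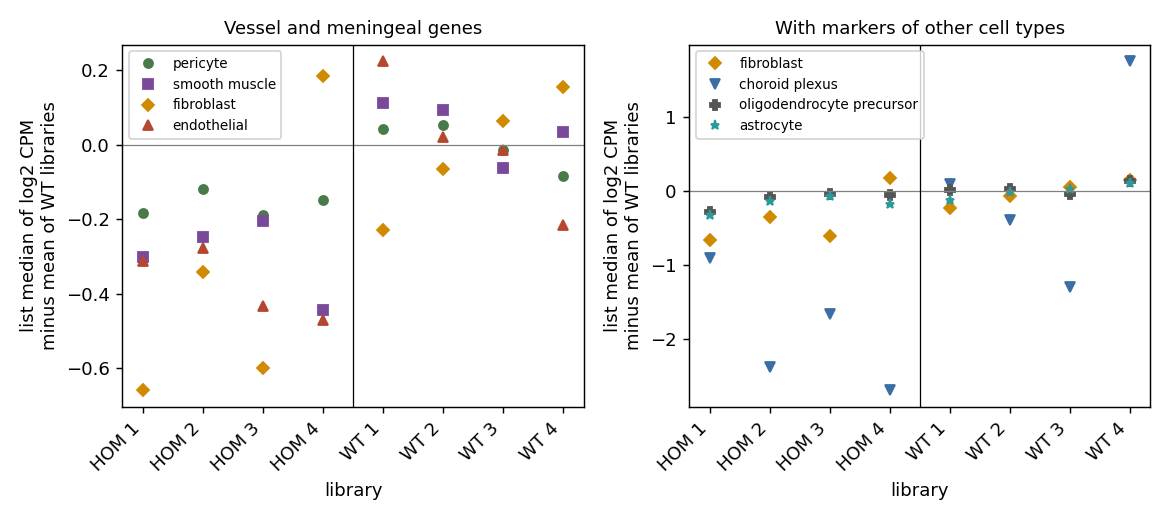
Median over each list's tested genes of log2 CPM minus the gene's WT mean, per library (HOM left, WT right); the left panel shows pericyte, smooth muscle, fibroblast and endothelial genes and the right panel sets fibroblast genes beside markers of other cell types. Fibroblast genes reach 0.18 in HOM replicate 4, where choroid plexus markers are at -2.69 and endothelial markers at -0.47.

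Aldh1a2 and Slc6a20a were the 2 fibroblast genes that fell. Aldh1a2 encodes the retinaldehyde dehydrogenase by which the meninges make retinoic acid. It had 2.85, 3.09, 2.67 and 4.46 CPM in HOM replicates 1 to 4, against 4.49, 4.94, 5.84 and 5.87 CPM in WT replicates 1 to 4. HOM replicate 4 lay just under the lowest WT library, at a log2 fold change of -0.69 (SE 0.18, edgeR adjusted p = 0.0448; -0.86 and 0.0195 without HOM replicate 4). The call was lost in the other 7 removals, at adjusted p up to 0.138. Slc6a20a, a transporter of proline and related imino acids, had 8.22, 10.96, 7.41 and 11.9 CPM in HOM replicates 1 to 4, against 14.5, 13.4, 12.3 and 15.7 CPM in WT replicates 1 to 4. It gave -0.54 (SE 0.14, edgeR adjusted p = 0.0494; without HOM replicate 4 these were -0.65 and 0.0331), and the call held without HOM replicate 2 or 4 and was lost in the other 6 removals. Upper-quartile scaling ended both calls (edgeR adjusted p = 0.0557 for Aldh1a2 and 0.0688 for Slc6a20a), and a filter of 1 CPM ended that of Slc6a20a (0.0536). A share of 14.8% of its span is covered by other genes, and a close relative, Slc6a20b, may have taken part of its reads.

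Transporters with the widest HOM spread were Slc6a13 and Slc22a6. A promoter stretch of each is shown because both had their highest value in HOM replicate 4 and both hold the MCAT letters, in capitals (CATTCC where they lie on the opposite strand), which 14.7% of all windows hold. Of all 14 fibroblast windows, 3 hold the letters, and Slc6a13 has further windows that are not shown. As the genes were picked on both counts, they do not tie the letters to that library's values, which was not tested. The Slc6a13 stretch is chr6:121300182-121300217 and that of Slc22a6 is chr19:8617879-8617914, both on the plus strand of GRCm38.p6.
Slc6a13: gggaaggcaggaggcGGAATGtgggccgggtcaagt
Slc22a6: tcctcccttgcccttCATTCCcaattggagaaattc

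Slc6a13 encodes the GABA transporter GAT2 of the brain's coverings. Its level was 2.99, 3.87, 3.19 and 9.86 CPM in HOM replicates 1 to 4, against 5.03, 6.86, 6.09 and 5.87 CPM in WT replicates 1 to 4. HOM replicates 1 to 3 lay below all WT libraries and HOM replicate 4 above them all. With all libraries the log2 fold change was -0.25 (SE 0.32, edgeR adjusted p = 0.682), and without HOM replicate 4 it was -0.82 (SE 0.16, edgeR adjusted p = 0.0243). Slc22a6, the organic anion transporter OAT1, followed the same order at 3.43, 3.90, 3.01 and 9.15 CPM in HOM replicates 1 to 4, against 6.27, 7.42, 6.91 and 7.10 CPM in WT replicates 1 to 4. Its log2 fold change was -0.50 (SE 0.29, edgeR adjusted p = 0.320) with all libraries and -0.99 (SE 0.14, edgeR adjusted p = 0.00621) without HOM replicate 4. Slc47a1, the cation exporter MATE1, averaged 0.805 ± 0.321 CPM in HOM and 1.21 ± 0.588 CPM in WT on 14 to 61 counts per library and did not pass (-0.57, SE 0.38; -0.41 without HOM replicate 4).

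Small leucine-rich proteoglycans bind collagen fibrils. The measured members Fmod, Bgn, Dcn and Lum all had negative log2 fold changes, and none passed with all libraries. Fmod (fibromodulin) had 6.502, 10.6, 6.26 and 18.8 CPM in HOM replicates 1 to 4, against 13.3, 12.3, 18.7 and 18.8 CPM in WT replicates 1 to 4. HOM replicate 4 matched the highest WT libraries while the other 3 lay below every WT library. The log2 fold change was -0.58 (SE 0.30, edgeR adjusted p = 0.269) with all libraries and -1.01 (SE 0.20, edgeR adjusted p = 0.0280) without HOM replicate 4. Bgn (biglycan) averaged 9.05 ± 1.84 CPM in HOM and 11.9 ± 0.986 CPM in WT (SD, n = 4; -0.40, SE 0.14, edgeR adjusted p = 0.104, or -0.51 and 0.0466 without HOM replicate 4).

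Dcn, the defining fibroblast gene, had 13.8, 12.7, 10.3 and 21.5 CPM in HOM replicates 1 to 4, against 12.7, 14.01, 16.3 and 19.2 CPM in WT replicates 1 to 4. The groups overlapped throughout (log2 fold change -0.09, SE 0.20, edgeR adjusted p = 0.833; without HOM replicate 4 these were -0.32 and 0.237). Lum (lumican), its neighbour on chromosome 10 (Dcn 97479609 to 97518143, Lum 97565128 to 97572703, GRCm38), gave -0.20 (SE 0.24) with all libraries and -0.34 without HOM replicate 4. Mgp, the matrix Gla protein that checks calcification, gave -0.30 (SE 0.22) with all libraries and -0.47 without HOM replicate 4. Among 5 other small leucine-rich proteoglycans tested none passed, at a median log2 fold change of 0.23. Podn (podocan) was at 0.25 (SE 0.09, edgeR adjusted p = 0.118), with 64.6% of its span shared with other genes.

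The transcription factor genes Foxc1 and Foxd1, of the forkhead family, are used in meningeal and perivascular development. Foxc1 was at 3.62, 4.95, 3.22 and 5.87 CPM in HOM replicates 1 to 4, against 5.49, 6.82, 5.77 and 6.37 CPM in WT replicates 1 to 4 (log2 fold change -0.47, SE 0.18, edgeR adjusted p = 0.145; without HOM replicate 4 these were -0.62 and 0.0655). Foxd1 was at 0.968, 1.05, 1.09 and 1.98 CPM in HOM replicates 1 to 4, against 1.41, 1.68, 2.08 and 2.03 CPM in WT replicates 1 to 4 (-0.49, SE 0.26, edgeR adjusted p = 0.280; without HOM replicate 4 these were -0.77 and 0.0830). For both, only HOM replicate 4 reached the WT range. The forkhead letters GTAAACA, searched on both strands, were in none of the 26 promoter windows of members and in 3.65% of all windows.

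Crabp2, which carries retinoic acid within the cell, was the 1 fibroblast gene with a positive log2 fold change (0.35, SE 0.32, edgeR adjusted p = 0.544). HOM replicate 4 was its highest library at 2.49 CPM, and the log2 fold change was 0.08 without it. Islr, a secreted protein of fibroblasts, averaged 10.8 ± 2.96 CPM in HOM and 12.9 ± 1.46 CPM in WT (-0.24, SE 0.16), and 16.98% of its span is covered by other genes. HOM replicate 4 was its highest library at 15.1 CPM. Without it the remaining HOM libraries lay below all WT libraries, at -0.43 (SE 0.12, edgeR adjusted p = 0.0632). Nupr1, a stress-responsive nuclear protein, was at 3.49 ± 0.811 CPM in HOM and 3.53 ± 0.505 CPM in WT (-0.01, SE 0.19; -0.13 without HOM replicate 4). Pdgfra, the receptor of PDGF-A, marks oligodendrocyte precursors as well as fibroblasts and averaged 58.5 ± 7.59 CPM in HOM and 68.8 ± 5.63 CPM in WT (-0.24, SE 0.09, edgeR adjusted p = 0.158; -0.20 without HOM replicate 4). Its highest HOM library was replicate 2, not replicate 4 as for most fibroblast genes.

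**Figure D4:**
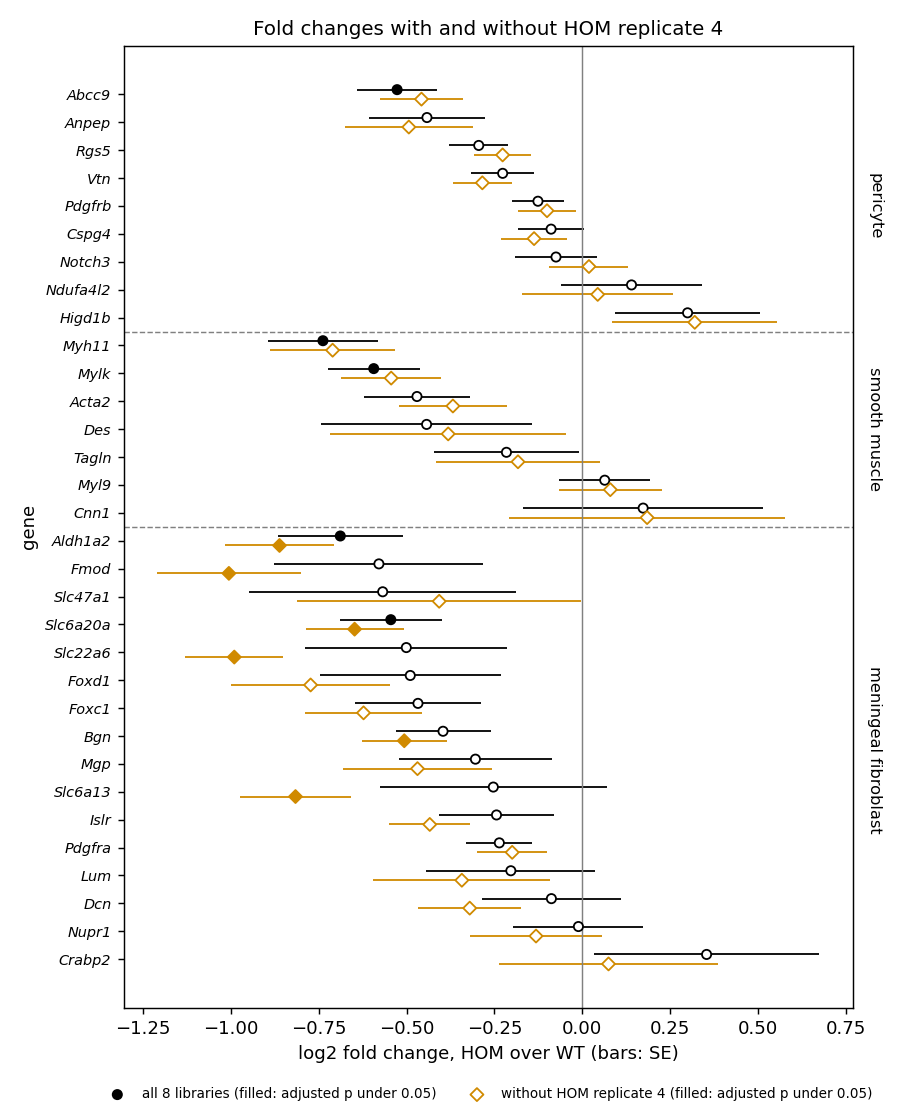
Log2 fold change of the 32 tested genes (x axis, HOM over WT, bars show SE) with all 8 libraries (black circles) and without HOM replicate 4 (orange diamonds), filled where edgeR's adjusted p is under 0.05. Without that library, 6 fibroblast genes are filled and no mural gene is.

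Removing other libraries shifted both counts, as it did the share of all genes called lower. That share was 0.706%, 3.69%, 0.505% and 1.47% without HOM replicates 1 to 4 in turn, and 1.49%, 3.38%, 0.646% and 1.62% without WT replicates 1 to 4 in turn. It was 1.15% with both replicates 4 removed, 2.8% under RLE scaling, 2.04% under upper-quartile scaling, 6.15% with DESeq2, 1.85% with no filter, 2.93% with a filter of 1 CPM and 1.12% with the replicate number as a block.

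With HOM replicate 4 left out, 6 fibroblast genes were lower: Aldh1a2, Slc22a6, Slc6a13, Bgn, Slc6a20a and Fmod (edgeR, adjusted p under 0.05; 1.47% of 17565 genes tested were lower in this fit). The fibroblast median moved to -0.49, and 14 of the 16 log2 fold changes became more negative. Without WT replicate 4 instead, that median was -0.26. HOM replicate 4 was singled out because it was high in these same genes. Lower fold changes and smaller spread without it follow from that choice, and the 6 calls are no independent test. For 9 of 16 fibroblast genes HOM replicates 1 to 3 lay below all WT libraries, as they did for 7 of 16 mural genes and 10.1% of all genes tested. No mural gene passed in this fit, yet Myh11 (-0.71, edgeR adjusted p = 0.0534), Abcc9 (-0.46, 0.0580) and Mylk (-0.54, 0.0611) kept their direction just past the threshold. The mural median was -0.20. HOM replicate 4 was also the 1 library with almost no Y-linked counts, whose part in the fibroblast values was not tested.

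**Figure D5:**
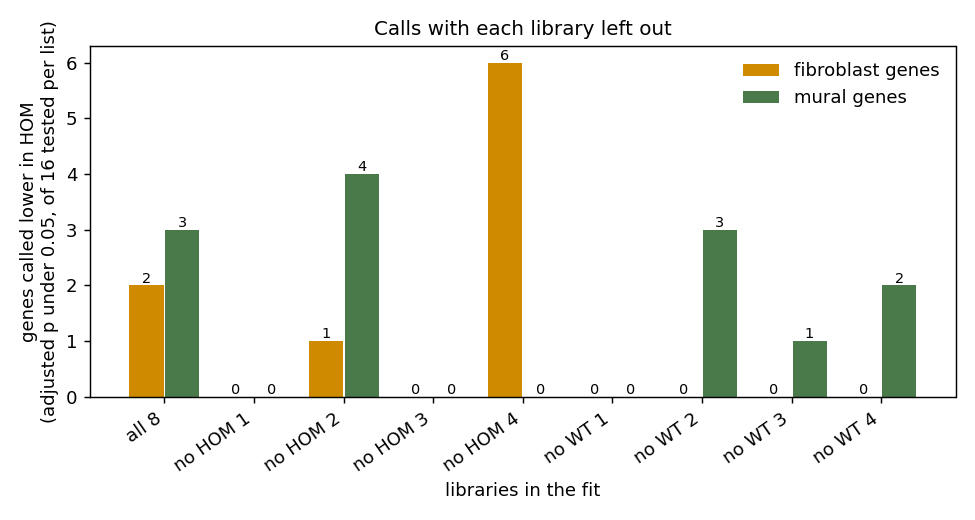
Number of genes called lower in HOM (y axis, edgeR adjusted p under 0.05) among 16 fibroblast genes (orange) and 16 mural genes (green), with all 8 libraries and with each library left out (x axis). Fibroblast calls run from 0 to 6 and mural calls from 0 to 4; only the removal of HOM replicate 4 raises the fibroblast count.

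Genes of a further fibroblast list moved in both directions, and which cells their counts came from was not tested. Of 33 tested, 5 fell and 3 rose, beside 2.94% and 2.47% of all genes tested. Their median log2 fold change was -0.28, with 25 negative and 8 positive. Fn1 (fibronectin) fell to 31.4 ± 3.08 CPM in HOM, against 45.3 ± 2.68 CPM in WT (-0.53, SE 0.08, edgeR adjusted p = 0.00679; SD, n = 4). The growth factor binding protein gene Igfbp2 fell to 17.9 ± 5.05 CPM in HOM, against 37.8 ± 12.6 CPM in WT, highest in WT replicate 4 (-1.07, SE 0.23, edgeR adjusted p = 0.0228). Of 3 collagen VI genes measured, 2 rose: Col6a1 stood at 85.5 ± 9.996 CPM in HOM and 57.1 ± 4.49 CPM in WT (0.58, SE 0.09, edgeR adjusted p = 0.00673), and Col6a2 at 32.7 ± 2.46 CPM in HOM and 19.04 ± 1.53 CPM in WT (0.78, SE 0.08, edgeR adjusted p = 8.72e-04). The other, Col6a3, named after its value was seen, was at 2.95 ± 0.228 CPM in HOM and 2.95 ± 0.379 CPM in WT and did not pass (0.0015, SE 0.15). The fibrillar collagen genes of the list, also named after their values were seen, had negative log2 fold changes and did not pass. They were Col1a1 (-0.34, SE 0.17), Col1a2 (-0.54, SE 0.18) and Col3a1 (-0.80, SE 0.28).

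Retinoic acid genes were measured beside Aldh1a2. Of 15 tested, 1 fell and 1 rose, at a median log2 fold change of 0.04. Over all genes tested 2.94% fell and 2.47% rose. Aldh1a1, a related dehydrogenase, stood at 18.8, 19.8, 19.7 and 20.8 CPM in HOM replicates 1 to 4, against 33.9, 36.0, 39.8 and 53.2 CPM in WT replicates 1 to 4. The 4 HOM libraries sat close together, replicate 4 included, about 1 log2 unit below WT (-1.04, SE 0.12, edgeR adjusted p = 0.00136), and 40.0% of the gene's span is covered by other genes. The receptor gene Rarg rose (0.46, SE 0.07, edgeR adjusted p = 0.00693), whereas Crabp1 (0.84, SE 0.24) and the retinoic acid hydroxylase gene Cyp26b1 (-0.29, SE 0.10) did not pass.

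Of 15 choroid plexus markers tested, 6 fell in HOM and none rose, all 15 had negative log2 fold changes and the median was -2.38. Over all genes tested 2.94% fell. Only 2 of the 15 had HOM and WT values that did not overlap, beside 7.47% of all genes tested with HOM lower. Relative to WT, their list median was -0.90, -2.38, -1.66 and -2.69 in HOM replicates 1 to 4, and 0.10, -0.39, -1.29 and 1.76 in WT replicates 1 to 4. HOM replicate 4, with the highest fibroblast list median, had the lowest choroid plexus list median, although the summed choroid plexus level was lowest in HOM replicate 2 (33.4 CPM, against 41.0 CPM in HOM replicate 4). With the mean choroid plexus level as a covariate no member passed and 37 genes did in all (0.213% of genes tested, 0.161% lower), at median log2 fold changes of -0.24 for mural and -0.51 for fibroblast genes. That mean log2 CPM ran from 0.0377 to 1.91 in HOM libraries and from 1.61 to 4.42 in WT libraries, so the covariate shares part of its spread with genotype, and its part in the members' values cannot be told apart from genotype.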

How the data were processed

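Gene counts of 4 HOM and 4 WT libraries were used as the authors deposited them, whole-number counts with no normalization. The tools named, per the submitters' processing notes, are STAR, featureCounts, edgeR and FastQC (0.11.3 for the last), and the build is GRCm38. Their settings and strand option were not given in the sources used here. Gene identifiers were named with GENCODE M21 (54409 of 54446 matched). The 34 members were taken by symbol, as were the other lists. Members and lists were chosen with earlier results of these data known.

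Libraries were scaled by TMM, genes were kept by filterByExpr (17395 genes), and HOM was compared with WT by edgeR 4.0.16 (R 4.3.3), using the quasi-likelihood F test with Benjamini-Hochberg adjustment over all genes tested and a threshold of 0.05. SE is the log2 fold change over the square root of F. CPM was computed on TMM-adjusted library sizes and is not corrected for gene length, so levels are not compared between genes. Log2 CPM had a prior count of 2 added. Single genes were also tested by exact two-sided permutation over 70 relabellings. The scripts were tested on simulated data. No pair of libraries was alike within sampling noise (lowest chi-square per degree of freedom 7.09).

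All members could be named, and from each other list up to 4 genes of smallest p, plus those needed to check a marker. Alternatives were RLE and upper-quartile scaling, DESeq2 1.42.0, other filters, the replicate number as a block, a choroid plexus covariate and leaving out libraries. A further promoter stretch is not reported here.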

Additional observations from a re-analysis of the deposited data

Results flagged for a closer look

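Of 64 sets of 4 values examined (32 genes in HOM and in WT), 4 held a library far from the other 3, and chance sets apart about 1 in 20 such sets. In HOM, replicate 4 was high for Slc6a13 at 9.86 CPM (2.99 to 3.87 CPM in the other 3), for Slc22a6 at 9.15 CPM (3.01 to 3.90 CPM) and for Foxd1 at 1.98 CPM (0.968 to 1.09 CPM). In WT, replicate 4 was high for Tagln at 1.62 CPM (1.15 to 1.22 CPM in the other 3). The 3 HOM values are all fibroblast genes in the same library, so they are not independent of one another.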

How the results depend on the processing

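RLE scaling and no filter on low counts left the number of lower fibroblast genes (2) and lower mural genes (3) within 1.5 times. Lower fibroblast genes numbered 0 with upper-quartile scaling, 1 with a filter of 1 CPM, 0 with the choroid plexus covariate and 4 with both replicates 4 removed. Lower mural genes numbered 5 with DESeq2, 0 with the covariate and 0 with both replicates 4 removed. All genes called numbered 940, against 1900 with DESeq2, 37 with the covariate and 335 with both replicates 4 removed. With each library left out in turn, lower fibroblast genes ran from 0 to 6, lower mural genes from 0 to 4, all calls from 180 to 1187, the mural median from -0.24 to -0.17 and the fibroblast median from -0.49 to -0.26. The cause of these differences was not tested.

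The labels do not say whether replicate numbers pair the libraries. Correlations of deviations between HOM and WT libraries of the same number were 0.0473, -0.196, -0.00701 and 0.0275. Those of unlike numbers ran from -0.215 to 0.248, and so few pairs cannot settle whether the numbers pair libraries. With the replicate number as a block, 1 fibroblast gene (Slc6a20a), 1 mural gene (Myh11) and 364 genes in all were called. Under the block the edgeR adjusted p was 0.0505 for Abcc9, 0.0667 for Mylk and 0.0545 for Aldh1a2.

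Some log2 fold changes turned sign. Nupr1 (-0.0105 with all libraries) was at 0.0246 with upper-quartile scaling and 0.0076 with the 1 CPM filter. With the covariate Cnn1 was at -0.37 (0.17 without it), Lum at 0.0342 (-0.20), Crabp2 at -0.0856 (0.35) and Slc47a1 at 0.0997 (-0.57); with both replicates 4 removed, Ndufa4l2 was at -0.0104 and Cnn1 at -0.0646. With single libraries left out, Nupr1 ran from -0.131 to 0.13, Dcn from -0.32 to 0.0592, Notch3 from -0.147 to 0.0195, Cnn1 from -0.0672 to 0.383 and Myl9 from -0.0376 to 0.13. None of these passed the threshold in the fit with all libraries. Depth limits Cnn1, Slc47a1 and Des most, with 6, 14 and 20 counts in their lowest library.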
